A study of Canis lupus familiaris with 17 samples.

Results

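The genes described here carry MHC class I antigen presentation in the dog, and they were followed through the circulating leukocytes of 17 dogs. They were chosen by symbol. Of 6 names listed, 5 had a row among the 20257 rows of the count matrices: DLA88 (ENSCAFG00000000487), B2M (ENSCAFG00000013633), TAP1 (ENSCAFG00000000832), TAPBP (ENSCAFG00000000972) and NLRC5 (ENSCAFG00000008933). TAP2, the partner of TAP1 in the peptide transporter, had no row under that symbol and was not analysed here. The blood came from 7 healthy dogs aged between 6 and 9 years and from 10 dogs with osteosarcoma (OS), a malignant bone tumor, aged between 5 and 13 years. All were client-owned, outbred wild-type animals of several breeds, and per the study's methods those with OS had a primary tumor and had received no treatment. Leukocytes were separated on Ficoll and captured 1 cell at a time with a 10x Genomics 3′ kit, 1 library per dog, and the values are counts of unique molecular identifiers (UMIs), each of which stands for 1 captured RNA molecule. The dog was the unit of replication throughout.

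MHC class I molecules show fragments of a cell's own proteins to CD8 T cells, and natural killer cells read their absence. The heavy chain, in dogs chiefly the highly polymorphic DLA-88, folds with beta-2 microglobulin (B2M) in the endoplasmic reticulum. The proteasome cuts the peptides, the TAP1 and TAP2 transporter pumps them into the endoplasmic reticulum, and tapasin (TAPBP) holds the empty heavy chain beside the transporter until a peptide is loaded. NLRC5 is the transactivator that switches on class I genes together with promoter-bound factors, and interferons raise the whole pathway.

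The matrices held 93013 barcodes, between 1332 and 7748 per dog, and between 7740230 and 56510134 UMIs per dog. After limits on genes, UMIs and mitochondrial counts and removal of 3938 likely doublets, 80407 cells were clustered with the members and their pathway genes left out, and clusters were named from marker genes. The labels call the cells PBMC, and the markers showed 5872 neutrophils and 3303 platelets among them. Values are given for CD4 T cells (23430), a joint class of CD8 T and NK cells (11382), B cells (7019), monocytes (15016) and neutrophils, each with at least 61 cells in every dog, while 1 cluster of 3123 T cells stayed unnamed. Pairs of dogs shared at most 16 barcodes. A pair of libraries stood apart from the rest. In healthy dog 2 and OS dog 3 the 68 ribosomal protein genes took 10.7 and 14.5% of the UMIs of CD4 T cells, against 17.6 to 24.7% in the other 15 dogs, and OS dog 3 was also the smallest library. Healthy dog 7 had the highest mean level of 20 interferon-stimulated genes in each of the 5 classes, 6.66 on the log2 scale in neutrophils against 1.52 to 5.19 in the other 16 dogs.

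Among the 5 classes NLRC5, the transactivator, was highest in the joint class of CD8 T and NK cells and in CD4 T cells, and B cells held little of it. NK cells were not measured apart. Levels are in CPM, the UMIs of a gene per 1000000 UMIs summed over a dog's cells of a class, after TMM scaling. In CD8/NK cells NLRC5 ranged from 80.4 to 136 CPM with a median of 103 over the 17 dogs. In CD4 T cells it ranged from 71.3 to 115 CPM with a median of 85.7. Monocytes followed with 26.8 to 55.1 CPM (median 39.8), neutrophils with 8.55 to 64.6 CPM (median 19.9) and B cells with 5.25 to 28.8 CPM (median 14.9). No dog's B cells reached the level of any dog's CD4 T cells. The count behind a value was between 2 and 90 UMIs per dog in B cells and between 2 and 173 in neutrophils, so single values in those classes are imprecise.

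In a fit of all 5 classes with the dog as a block, NLRC5 was higher in CD4 T cells than in B cells by 2.58 ± 0.12 on the log2 scale (± SE, edgeR quasi-likelihood test, adjusted p = 4.20e-32) and higher in CD8/NK cells than in B cells by 2.80 ± 0.12 (edgeR, adjusted p = 6.02e-34), in 17 of 17 dogs each. The fold within a dog between CD4 T cells and B cells ran from 3.77 to 13.6 with a median of 6.28. CD4 T cells also exceeded monocytes by 1.20 ± 0.10 and neutrophils by 1.69 ± 0.13, in 17 of 17 dogs each. Monocytes exceeded B cells by 1.38 ± 0.12. Neutrophils exceeded B cells by 0.89 ± 0.16, in 14 of 17 dogs. That last difference was not called with DESeq2 size factors, with doublets kept or without healthy dogs 2 and 7 and OS dog 3. CD4 T cells and CD8/NK cells, which differed by 0.22 ± 0.10 (edgeR, adjusted p = 0.0641), and monocytes and neutrophils, which differed by 0.49 ± 0.14, did not pass both thresholds of a call, an adjusted p under 0.01 and a log2 difference above 0.58.

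The share of cells with at least 1 NLRC5 UMI was also highest in T cells of the 3 classes compared here. It had a median over dogs of 35.5% in CD4 T cells, 6.86% in B cells and 4.33% in neutrophils, with median depths of 5567, 4069 and 1757 UMIs per cell. After every cell was thinned to 1000 UMIs, which left out 173, 51 and 174 shallower cells, the medians were 8.96% in CD4 T cells, 1.61% in B cells and 2.43% in neutrophils. In the 179 erythrocytes of the 1 dog with enough of them, taken as cells that should lack these genes, 0 held an NLRC5 UMI, which allows a share of up to 1.68% (counting error only), at a median depth of 13538 UMIs. That limit comes from 1 dog and from cells of another depth, so it cannot serve as a background for the shares above, and nothing is read from it. Unthinned, 24.6% of those erythrocytes held a DLA88 UMI and 76.5% a B2M UMI. Thinned to 1000 UMIs, 6.78% of them held a DLA88 UMI and 19.2% a B2M UMI, against 87.5 and 97.5% of the CD4 T cells of the same dog, OS dog 1.

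**Figure D1:**
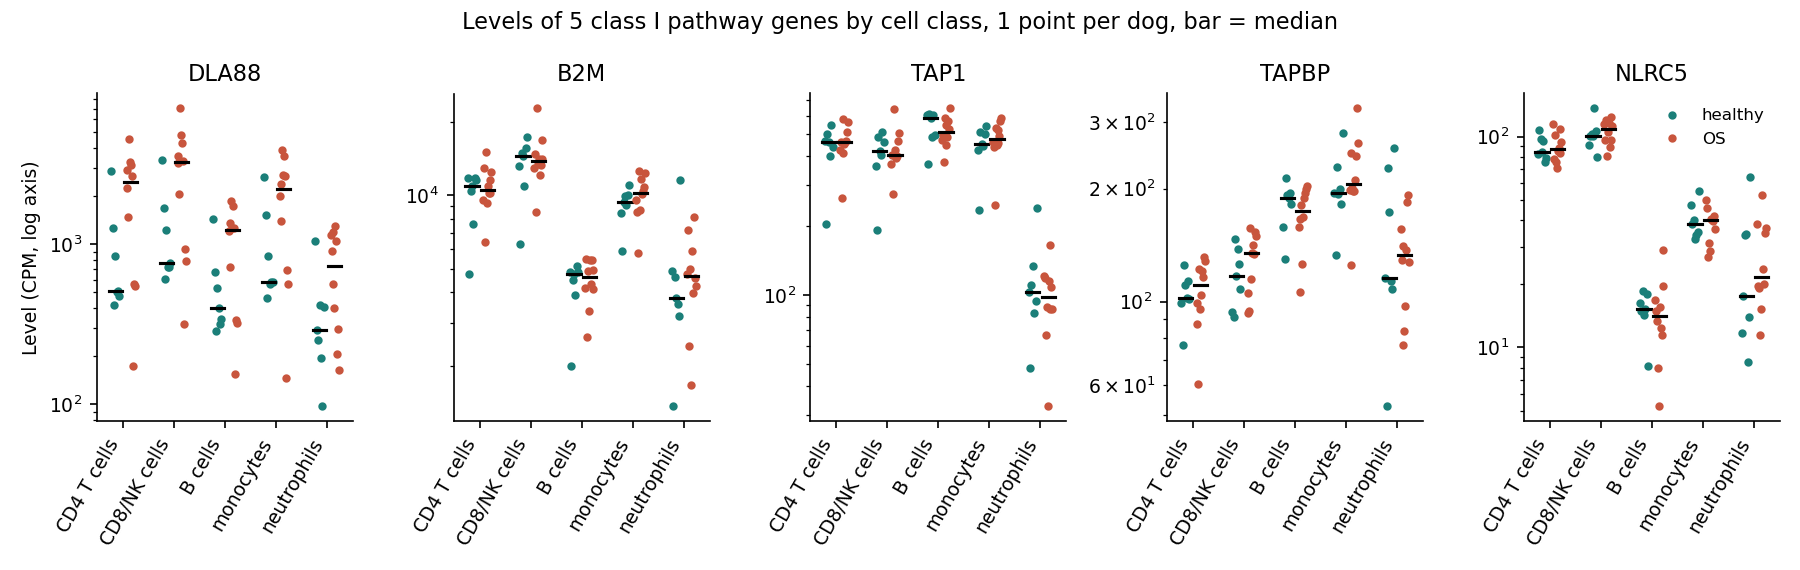
Each panel plots 1 gene's level in CPM (log axis) for every dog, with the 5 cell classes along the horizontal axis, healthy dogs and dogs with OS in separate colors and a bar at the median of each group. NLRC5 sits highest in CD4 T cells and CD8/NK cells (medians over all dogs of 85.7 and 103 CPM) and TAP1 lowest in neutrophils (102 CPM), and DLA88 is spread over 26.4-fold in CD4 T cells.

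TAP1, one chain of the transporter, was nearly level across lymphocytes and monocytes and low in neutrophils. Its median was 460 CPM in CD4 T cells (range 203 to 583), 406 CPM in CD8/NK cells (191 to 645), 525 CPM in B cells (372 to 646) and 463 CPM in monocytes (235 to 588). In neutrophils it was 102 CPM, with a range of 32.8 to 239 that touched the lowest dogs of the T cell and monocyte classes. Within each dog neutrophils held less TAP1 than every other class, in 17 of 17 dogs each time. The difference was 2.07 ± 0.10 (log2) against CD4 T cells, 1.97 ± 0.10 against CD8/NK cells, 2.32 ± 0.10 against B cells and 2.12 ± 0.10 against monocytes (edgeR, largest adjusted p = 1.67e-30). B cells, monocytes, CD4 T cells and CD8/NK cells, in that order, were not called apart from their neighbors, with differences of 0.20 ± 0.08, 0.05 ± 0.08 and 0.10 ± 0.08. Against B cells, TAP1 was higher in CD4 T cells in 0 of 17 dogs and in CD8/NK cells in 1 of 17. The folds over B cells within a dog ran from 0.546 to 0.997 and from 0.513 to 1.10, and neither pair was called.

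TAPBP, which encodes tapasin, had another order, with monocytes first and CD4 T cells last, although the small difference of monocytes from B cells changed sign with DESeq2 size factors. Monocytes had a median of 199 CPM (range 125 to 327) and B cells 182 CPM (106 to 213). Neutrophils had 129 CPM (52.7 to 256), CD8/NK cells 126 CPM (91.2 to 157) and CD4 T cells 104 CPM (60.5 to 132). Monocytes exceeded CD4 T cells by 1.00 ± 0.07 (log2, edgeR, adjusted p = 1.90e-21), and B cells exceeded CD4 T cells by 0.72 ± 0.07 (edgeR, adjusted p = 7.00e-14). Monocytes also exceeded CD8/NK cells by 0.78 ± 0.07 and neutrophils by 0.60 ± 0.08. The former was not called with DESeq2 size factors, and the latter was not called in healthy dogs alone or with doublets kept. No pair of neighbors in this order was called apart.

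B2M, the light chain shared by all class I molecules, separated the classes into an upper and a lower tier. CD8/NK cells had a median of 14134 CPM (range 6321 to 22684), CD4 T cells 10867 CPM (4759 to 15039) and monocytes 9954 CPM (5816 to 12553). B cells had 4774 CPM (1998 to 5459) and neutrophils 4573 CPM (1370 to 11547). The ranges of the tiers overlapped between dogs, while within a dog CD4 T cells exceeded B cells in 17 of 17 dogs, by 1.24 ± 0.10 on the log2 scale (edgeR, adjusted p = 2.73e-19). CD8/NK cells exceeded B cells by 1.65 ± 0.10 and neutrophils by 1.62 ± 0.10. Monocytes exceeded B cells by 1.16 ± 0.10 and neutrophils by 1.12 ± 0.10. B cells and neutrophils differed by 0.04 ± 0.10 (edgeR, adjusted p = 0.763), with 8 of 17 dogs higher in B cells.

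DLA88, the heavy chain, followed the same tiers as its partner once each dog was compared with itself. The median was 1672 CPM in CD8/NK cells (range 316 to 7038), 1255 CPM in CD4 T cells (172 to 4549), 1392 CPM in monocytes (145 to 3843), 674 CPM in B cells (154 to 1861) and 403 CPM in neutrophils (97.5 to 1300). These ranges overlapped, and the highest values of CD8/NK cells, CD4 T cells and monocytes lay above every value of B cells and neutrophils. Within dogs, CD8/NK cells exceeded CD4 T cells in 17 of 17 by 0.51 ± 0.11 (edgeR, adjusted p = 5.92e-05), a difference below the fold threshold. CD4 T cells exceeded B cells in 17 of 17 dogs by 0.83 ± 0.11 (edgeR, adjusted p = 7.48e-10) and neutrophils in 16 of 17 by 1.29 ± 0.12 (edgeR, adjusted p = 6.50e-17). CD8/NK cells exceeded B cells by 1.34 ± 0.11 and neutrophils by 1.80 ± 0.12. Monocytes exceeded B cells by 0.83 ± 0.11, which was not called with DESeq2 size factors, and neutrophils by 1.30 ± 0.12. CD4 T cells and monocytes differed by less than their error, -0.01 ± 0.11 (edgeR, adjusted p = 0.957), with 8 of 17 dogs higher in CD4 T cells. Unlike for B2M, the lower tier was not level. B cells exceeded neutrophils in 15 of 17 dogs by 0.47 ± 0.11 (edgeR, adjusted p = 0.000236), a difference below the fold threshold.

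The calls of members were then counted by comparison, beside the share of all genes called. Between CD4 T cells and CD8/NK cells 0 of 5 members were called, where 20.8% of 15946 genes were called by edgeR, and 4 members had an unadjusted p under 0.05. DESeq2 was not run between classes. Between CD4 T cells and B cells 3 members were higher and 1 lower in CD4 T cells (30.0% of genes called), and between CD8/NK cells and B cells 3 were higher in CD8/NK cells (30.4% of genes called). Against monocytes, 1 member was higher and 1 lower in CD4 T cells (51.6% of genes called), 1 was higher and 1 lower in CD8/NK cells (47.4% of genes called), and 3 were lower in B cells (47.6% of genes called). Against neutrophils, 4 members were higher in CD4 T cells (54.7% of genes called), 4 in CD8/NK cells (52.5% of genes called) and 4 in monocytes (47.1% of genes called). B cells had 1 member higher and 1 lower than neutrophils (52.5% of genes called). With DESeq2 size factors in place of TMM the share of calls that were higher in the first class moved from 47.6 to 61.6% for B cells against monocytes and from 47.3 to 57.5% for CD8/NK cells against monocytes. Neutrophils had the fewest UMIs per cell of the 5 classes, with a median of 1757, and the part of depth in their low values was not tested. In sums of counts, fewer molecules per cell and fewer cells that hold any cannot be told apart.

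The rest of the pathway was read from lists of other class I genes, the immunoproteasome, peptide trimming and loading, and class I transcription factors. The immunoproteasome, the form of the proteasome tuned to class I peptides, had 4 of its 5 listed genes in the matrices. All 4 were lower in neutrophils than in each of the other classes. Against CD4 T cells the difference was 2.09 ± 0.09 for PSME2, 1.87 ± 0.10 for PSMB10, 1.75 ± 0.12 for PSMB9 and 1.14 ± 0.08 for PSME1 on the log2 scale. Their median was 1.81, where the median of all genes in that comparison was 0.25. Of the 8 genes for trimming, folding and loading, 4 were higher and 1 lower in CD4 T cells than in neutrophils (median 0.66). Of the 13 transcription factors, 2 were higher and 5 lower in that comparison (median -0.12). Both lists were thus called at about the rate of all genes there (54.7%). Of 15 other class I and related names listed, 6 had a row (DLA-64, DLA-79, FCGRT, HFE, CD1A8 and CD1C). DLA-12 had none under that symbol. Of these 6 genes, 4 were higher in CD4 T cells than in neutrophils and 0 lower, with a median of 1.36 and a lowest value of -1.28 that was not called. Of these, DLA-64 was higher in CD4 T cells than in neutrophils by 1.25 ± 0.11 and DLA-79 by 4.38 ± 0.23, at levels of DLA-79 that had a median of only 89.0 CPM in CD4 T cells and 3.34 CPM in neutrophils.

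What set DLA88 apart from the other members was its spread between dogs. In CD4 T cells the highest dog, OS dog 4, had 26.4 times the level of the lowest, OS dog 8. The SD of log2(CPM + 1) over the 17 dogs was 1.39 in CD4 T cells, where only 6 of 3232 genes of at least 50 CPM varied more and the median gene had an SD of 0.24. It was 1.29 in CD8/NK cells (19 of 3225 genes varied more), 1.10 in B cells (10 of 3062), 1.31 in monocytes (45 of 3633) and 1.15 in neutrophils (150 of 3131, with a median gene at 0.46). In CD4 T cells B2M had an SD of 0.40, TAP1 of 0.38, TAPBP of 0.28 and NLRC5 of 0.20. Of the total variation of DLA88 over the 85 sums of a dog and a class, 71.8% lay between dogs and 23.4% between classes. For NLRC5 the shares were 5.09 and 85.4%, and for TAP1 they were 11.4 and 82.6%. B2M had 23.1 and 68.4%, and TAPBP 34.2 and 49.7%.

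**Figure D2:**
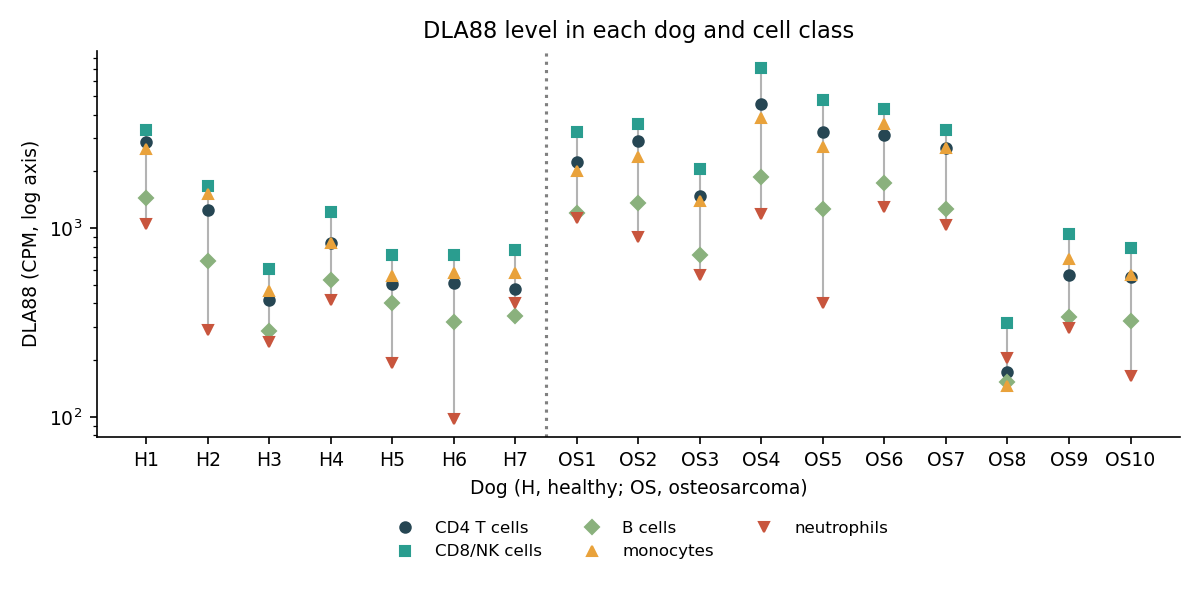
DLA88 in CPM (log axis) for each dog along the horizontal axis, with a symbol for each of the 5 cell classes joined by a line within a dog, and a dotted line between healthy dogs (H) and dogs with OS. OS dog 8 is lowest in 4 of 5 classes and OS dog 4 highest in 4 of 5, and dogs keep much the same order in the classes other than neutrophils, which lie below the other classes in most dogs.

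A dog that was low in DLA88 in one class was low in the others. Across dogs, Pearson's r of the DLA88 level between 2 classes ran from 0.81 to 0.995 over the 10 pairs of classes, with a median of 0.983 (permutation test, largest adjusted p = 0.000207 over a family of 60 relations of 6 genes). Spearman's rho was at least 0.765 (permutation test, largest adjusted p = 0.00141), and r stayed at or above 0.82 without the 2 dogs farthest from the median. Genes in general had median r of 0.28 to 0.73 in the same pairs. NLRC5 had r between -0.29, for CD8/NK cells with monocytes, and 0.64, for CD4 T cells with B cells (3 of 10 with an adjusted p under 0.05). The part of low NLRC5 UMI numbers in B cells and neutrophils was not tested. B2M had 0.63 to 0.94 (10 of 10), TAP1 0.40 to 0.95 (6 of 10) and TAPBP 0.43 to 0.91 (9 of 10), and without healthy dog 2 and OS dog 3 these counts became 4, 4 and 5 of 10. For DLA88 it stayed at 10 of 10 without those dogs. DLA-64, another class I heavy chain gene, shared this pattern, with r between 0.863 and 0.986 in the same 10 pairs and 53.4% of its variation between dogs.

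DLA88 was weighed against DLA-64 as its share of the UMIs of both. Averaged over the 5 classes the share ran from 3.92% in OS dog 8 to 70.2% in OS dog 4, with a median of 38.5%. Within a dog the 5 classes spanned a median of 6.72 percentage points and at most 15.7, in healthy dog 2. No dog lay between 18.4 and 38.5%, which was the widest gap between neighbors when the shares of the 17 dogs were put in order. Any set of values has a widest gap, so the 2 sides are not shown to be separate groups. Of the 8 dogs below that gap 5 were healthy and 3 had OS, and of the 9 above it 2 were healthy and 7 had OS. Since this gap came from the same values, the sides were not tested against each other.

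The levels are described by the side of this gap on which a dog lay. In CD4 T cells DLA88 had 172, 508 and 838 CPM (lowest, median and highest) in the 8 dogs below the gap, and 1255, 2868 and 4549 CPM in the 9 above it. DLA-64 in the same cells had 3255, 4253 and 6522 CPM below and 1128, 2514 and 3862 CPM above. In monocytes DLA88 had 145, 572 and 839 CPM below and 1392, 2619 and 3843 CPM above, and DLA-64 had 4044, 5174 and 6938 CPM below and 1466, 2991 and 3945 CPM above. In CD4 T cells and monocytes dogs below the gap thus had less DLA88 and mostly more DLA-64. A split on the ratio of these levels fixes part of this. In neutrophils the sides overlapped in DLA88, with values up to 416 CPM below the gap and from 290 CPM above it. Over all 17 dogs r of DLA88 with DLA-64 was -0.68 in CD4 T cells, -0.72 in CD8/NK cells, -0.70 in B cells and -0.71 in monocytes (permutation test, adjusted p between 0.00426 and 0.00647 over 20 relations), and -0.09 in neutrophils (adjusted p = 0.855). These coefficients join dogs of both sides. Within the 9 dogs above the gap r of DLA88 with DLA-64 lay between 0.17 and 0.86 over the 5 classes, and within the 8 below it between -0.64 and 0.58, with the neutrophils as the one positive class below it and no negative class above it. Without healthy dog 2 and OS dog 3, both above the gap, r in the 7 dogs left there was -0.61 in CD4 T cells, -0.71 in CD8/NK cells, -0.21 in B cells, -0.45 in monocytes and 0.83 in neutrophils, so that those 2 dogs decided its sign in 4 classes. The likeness of DLA88 between classes held within most pairs on both sides, with a median r of 0.916 (0.57 to 0.98) above the gap and 0.944 (0.23 to 0.99) below it over the 10 pairs of classes. Below the gap the 4 pairs with neutrophils had r of only 0.23 to 0.35. The sides were set from the ratio of these same 2 levels, which limits what can be read within them. DLA-79, a further class I gene, had r between 0.24 and 0.37 with DLA88 over all dogs (permutation test, smallest adjusted p = 0.282).

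Together the 2 heavy chain genes varied less between dogs than either gene alone. A sum of 2 levels can vary less than each of them even where they are unrelated, so no link between the 2 genes is read from this. DLA-64 had an SD of 0.68 in CD4 T cells, 0.71 in CD8/NK cells, 0.72 in B cells, 0.66 in monocytes and 1.26 in neutrophils. The sum of DLA88 and DLA-64 had an SD of 0.37 in CD4 T cells, 0.38 in CD8/NK cells, 0.38 in B cells and 0.34 in monocytes on the log2 scale, and 0.87 in neutrophils. That sum rose and fell with B2M over dogs, with r between 0.80 and 0.91 in the 5 classes (permutation test, largest adjusted p = 0.00124) and rho between 0.57 and 0.84. Without healthy dog 2 and OS dog 3, r lay between 0.45 and 0.87, with an adjusted p under 0.05 in 4 of 5 classes. Within the sides r lay between 0.83 and 0.97 in the 9 dogs above the gap and between 0.50 and 0.80 in the 8 below it. Below the gap rho was 0.29 in CD4 T cells, 0.43 in CD8/NK cells, 0.38 in B cells, 0.48 in monocytes and 0.98 in neutrophils. Without healthy dog 2 and OS dog 3 r lay between 0.36, in monocytes (rho 0.11), and 0.92 in the 7 dogs left above the gap. The sides were set from the ratio of the 2 levels in this sum, so nothing is read from the values within them.

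DLA88 alone showed no relation with B2M that passed the test over all dogs, with r between -0.13 and 0.20 (permutation test, smallest adjusted p = 0.575). In the 9 dogs above the gap r lay between 0.917 and 0.957 in the 5 classes (Spearman's rho 0.70 to 0.917), and in the 8 below it between -0.51 and 0.48. Without healthy dog 2 and OS dog 3, over 7 dogs, r above the gap was between 0.60 and 0.88 and rho between 0.36 and 0.82. The gap was set on the share of DLA88 in a sum that itself went with B2M, so this contrast between the sides is partly fixed by how they were set, and nothing is read from it. How reads from a polymorphic heavy chain were divided between these rows by alignment to 1 reference genome cannot be told apart here from the amount of each RNA, since no allele was typed.

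**Figure D3:**
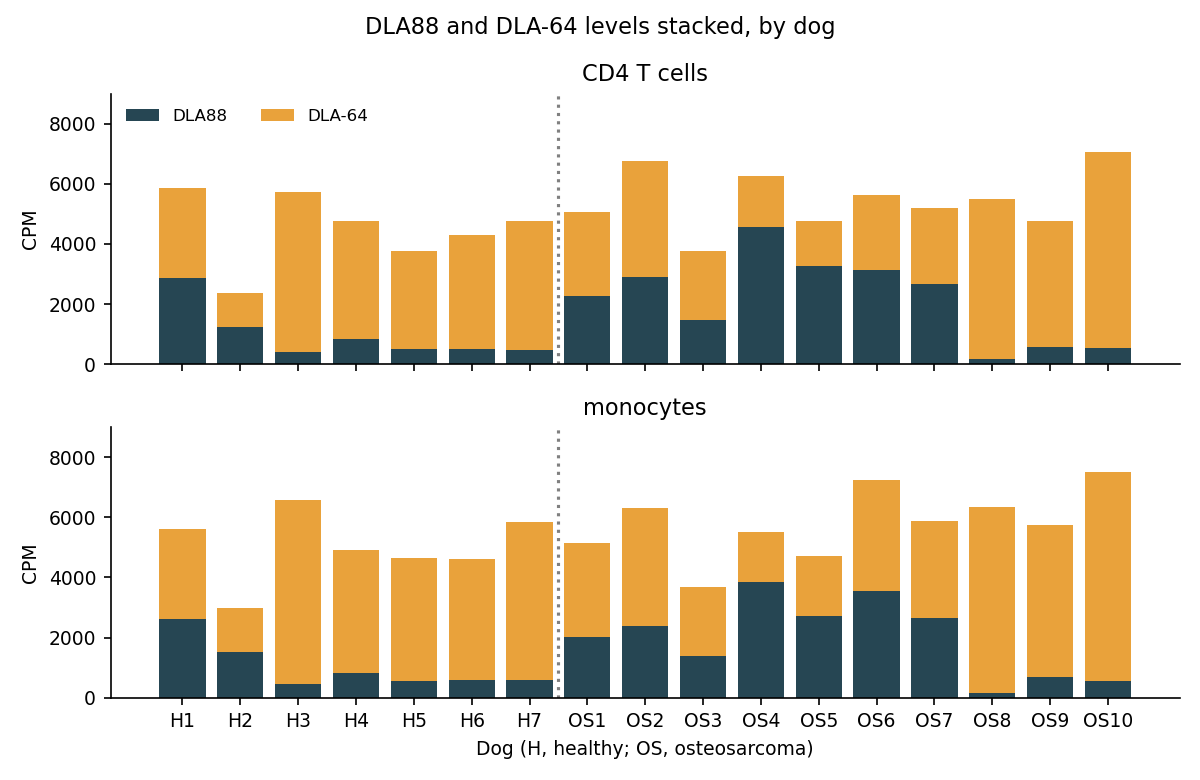
Stacked bars of the levels of DLA88 (dark) and DLA-64 (light) in CPM (linear axis from 0) for each dog, in CD4 T cells above and monocytes below, with a dotted line between healthy dogs (H) and dogs with OS. The whole bars differ less between dogs than their dark parts, and dogs with a short dark part, such as OS dog 8, mostly have a long light one.

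Between dogs with OS and healthy dogs, DLA88 had the largest difference of the members and did not pass the test. In CD4 T cells the healthy dogs had 415, 512 and 2868 CPM as lowest, median and highest value, and the dogs with OS 172, 2457 and 4549 CPM. In CD8/NK cells the healthy dogs had 606, 763 and 3333 CPM, and the dogs with OS 316, 3275 and 7038 CPM. The groups overlapped in every class, and both the lowest and the highest dog of both classes had OS. Of the 10 dogs with OS, 9 lay above the healthy median in CD4 T cells, 9 in CD8/NK cells, 7 in B cells, 8 in monocytes and 8 in neutrophils.

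The fitted difference of OS minus healthy was 1.16 ± 0.53 in CD4 T cells, 1.25 ± 0.50 in CD8/NK cells, 0.87 ± 0.41 in B cells, 0.96 ± 0.51 in monocytes and 0.91 ± 0.44 in neutrophils on the log2 scale. The adjusted p of edgeR over all genes was 0.987, 1.00, 0.972, 0.834 and 0.552 in that order, and the unadjusted p was between 0.0197 and 0.0756. These 5 values come from the same dogs and are not independent. An exact two-sided permutation test of the mean log2 level gave p between 0.107 and 0.24 for DLA88, p between 0.0526 and 0.659 for the sum of DLA88 and DLA-64, and p between 0.156 and 0.288 for the share of DLA88 in that sum. After adjustment over the 20 comparisons made, which included DLA-64, the smallest was 0.367.

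The differences of the other members were smaller, and several depended on 1 dog. B2M differed by 0.15 ± 0.20 in CD4 T cells, 0.12 ± 0.21 in CD8/NK cells, 0.08 ± 0.19 in B cells, 0.15 ± 0.15 in monocytes and 0.03 ± 0.33 in neutrophils. TAP1 lay between -0.25 ± 0.27 in neutrophils and 0.11 ± 0.16 in monocytes. TAPBP lay between -0.16 ± 0.24 in neutrophils and 0.15 ± 0.16 in monocytes, and NLRC5 between -0.11 ± 0.37 in neutrophils and 0.05 ± 0.11 in CD8/NK cells. The neutrophil class was named from markers of mature neutrophils and of polymorphonuclear myeloid-derived suppressor cells together. The study reports the latter cells as expanded in dogs with OS. They were not measured apart here, and the part of this mix in the neutrophil values was not tested. Without healthy dog 7 the neutrophil differences were 0.40 for B2M, 0.44 for NLRC5, 0.044 for TAP1 and 0.016 for TAPBP, none of them called. Without healthy dog 2 the B2M differences were 0.017 in CD4 T cells, -0.0057 in CD8/NK cells and -0.040 in B cells, and those of TAP1 were -0.038 in CD4 T cells, -0.030 in CD8/NK cells and -0.020 in monocytes.

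Of the 5 members 0 were called in any class, as were 0% of all genes by edgeR in CD4 T cells (14332 tested), CD8/NK cells (13062), B cells (12590), monocytes (14133) and neutrophils (10713). At an unadjusted p under 0.05 there were 566, 565, 641, 861 and 960 genes. DESeq2 called 0 genes in 4 classes and 2 in monocytes, neither of them a member. None of the pathway lists had a called gene either. The 4 immunoproteasome genes had median differences between 0.00 and 0.20 over the classes. The interferon-stimulated genes had a positive difference in 16 of 20 in CD4 T cells, 16 of 19 in CD8/NK cells, 18 of 19 in B cells, 19 of 20 in monocytes (median 0.43, with a median of all genes of 0.02) and 2 of 19 in neutrophils (median -0.55, with a median of all genes of 0.02), without a call in any class. Healthy dog 7, the highest in these genes, is among the healthy dogs. Its mean log2 level of these genes in neutrophils was 6.66, against 2.22 to 4.34 in the other healthy dogs and 1.52 to 5.19 in dogs with OS. Its part in the neutrophil values was not tested, and no direction between the groups is read from them.

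The difference of the OS effect between 2 classes was tested for each member by exact two-sided permutation of whole dogs over the 19448 possible groupings. Of 50 comparisons 5 had an unadjusted p under 0.05 and 0 an adjusted one. The smallest p was 0.00895 (exact permutation test, adjusted 0.448), for a DLA88 difference between OS and healthy that was 0.32 larger on the log2 scale in CD8/NK cells than in B cells.

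**Figure D4:**
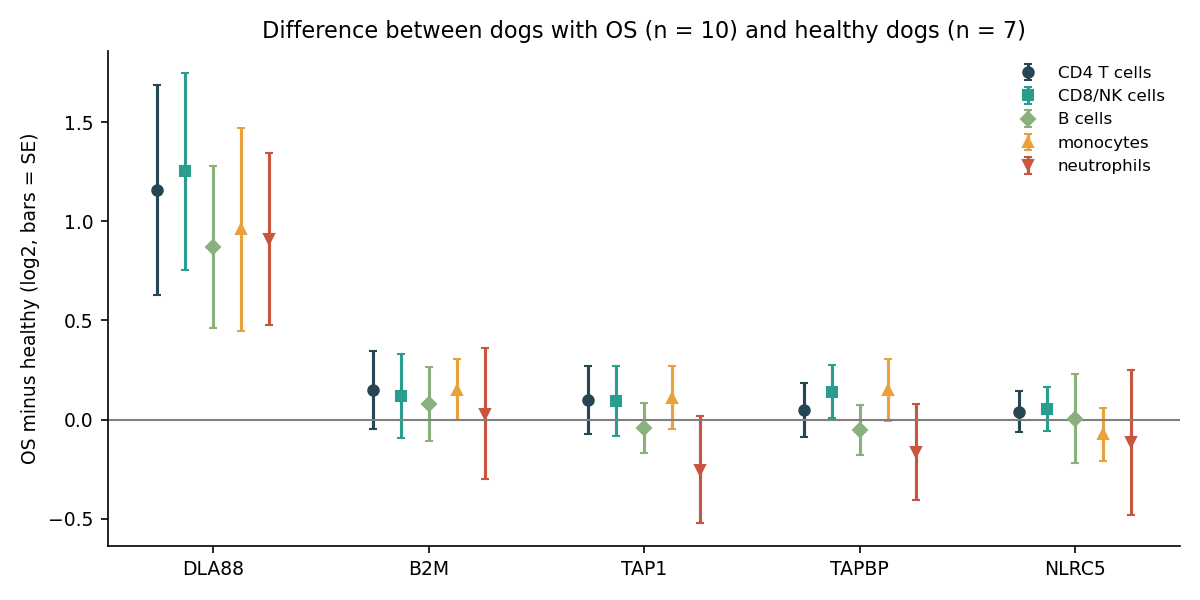
The log2 difference of OS minus healthy for each of the 5 members (horizontal axis) in each of the 5 cell classes (symbols), with bars of 1 standard error, from the edgeR fit of summed counts, with a line at 0. DLA88 lies between 0.87 and 1.25 with errors of 0.41 to 0.53, and the other members lie between -0.25 and 0.15.

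B2M, TAP1 and TAPBP moved together over all 17 dogs. B2M and TAP1 had r between 0.83 and 0.96 in the 5 classes (permutation test, largest adjusted p = 0.0003 over 30 relations), with rho between 0.64 and 0.91. B2M and TAPBP had 0.54 to 0.78, with an adjusted p under 0.05 in 5 of 5 classes, and TAP1 and TAPBP 0.71 to 0.85, likewise in 5 of 5. Healthy dog 2 and OS dog 3 were low in all 3 genes. Without them B2M and TAP1 kept r between 0.59 and 0.90 (4 of 5 with an adjusted p under 0.05), B2M and TAPBP had 0.22 to 0.62 (0 of 5) and TAP1 and TAPBP 0.58 to 0.74 (2 of 5). The level of B2M also moved with the share of ribosomal protein UMIs, with r of up to 0.92. It had an adjusted p under 0.05 in 4 of 5 classes, which became 1 of 5 without those dogs. TAP1 had r of up to 0.94 with that share, and -0.34 in neutrophils. Without those dogs TAP1 kept 0.67 in CD4 T cells and 0.68 in CD8/NK cells (permutation test, adjusted p = 0.0344 each). NLRC5 had r of -0.60 with the share in CD4 T cells (adjusted p = 0.0194), which became -0.50 without those dogs (adjusted p = 0.141). Without them it had -0.65 in CD8/NK cells (adjusted p = 0.044) and -0.79 in monocytes (adjusted p = 0.0112). The part of RNA quality in these relations was not tested. NLRC5 had r between -0.58 and 0.44 with B2M and between -0.43 and 0.53 with TAP1, without one direction over the classes. The lowest, with B2M in CD4 T cells (permutation test, adjusted p = 0.0238), and the highest, with TAP1 in neutrophils (adjusted p = 0.0485), passed 0.05. Without healthy dog 2 and OS dog 3 these became 0.191 and 0.0821. With TAPBP, NLRC5 had r between -0.26 and 0.51 (smallest adjusted p = 0.0588).

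The mean level of the interferon-stimulated genes went with B2M in each class, with r between 0.57 and 0.74 (permutation test, largest adjusted p = 0.0275 over 25 relations). It went with TAP1 at r between 0.44 and 0.72 and with TAPBP at r between 0.49 and 0.80, with an adjusted p under 0.05 in 4 of 5 classes each. NLRC5 followed it in monocytes and neutrophils, with 2 of 5 classes at an adjusted p under 0.05 and a highest r of 0.66. DLA88 had r between -0.20 and -0.08 over all dogs, with an adjusted p under 0.05 in 0 of 5 classes. In the 9 dogs above the gap in its share r lay between 0.44 and 0.81, and in the 8 below it between -0.32 and 0.31. The former became -0.38 to 0.42 over 7 dogs without healthy dog 2 and OS dog 3. The gap was set on the share of DLA88 itself, so nothing is read from this contrast between the sides. Without healthy dog 2 and OS dog 3 the counts were 1 for B2M, 1 for TAP1, 2 for TAPBP and 0 for NLRC5. Without healthy dog 7 they were 5, 4, 5 and 1. That dog, highest in interferon-stimulated genes, also had the highest neutrophil B2M (11547 CPM), TAP1 (239 CPM), TAPBP (256 CPM) and NLRC5 (64.6 CPM) of all dogs, and neutrophils made up 37.5% of its cells.

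**Figure D5:**
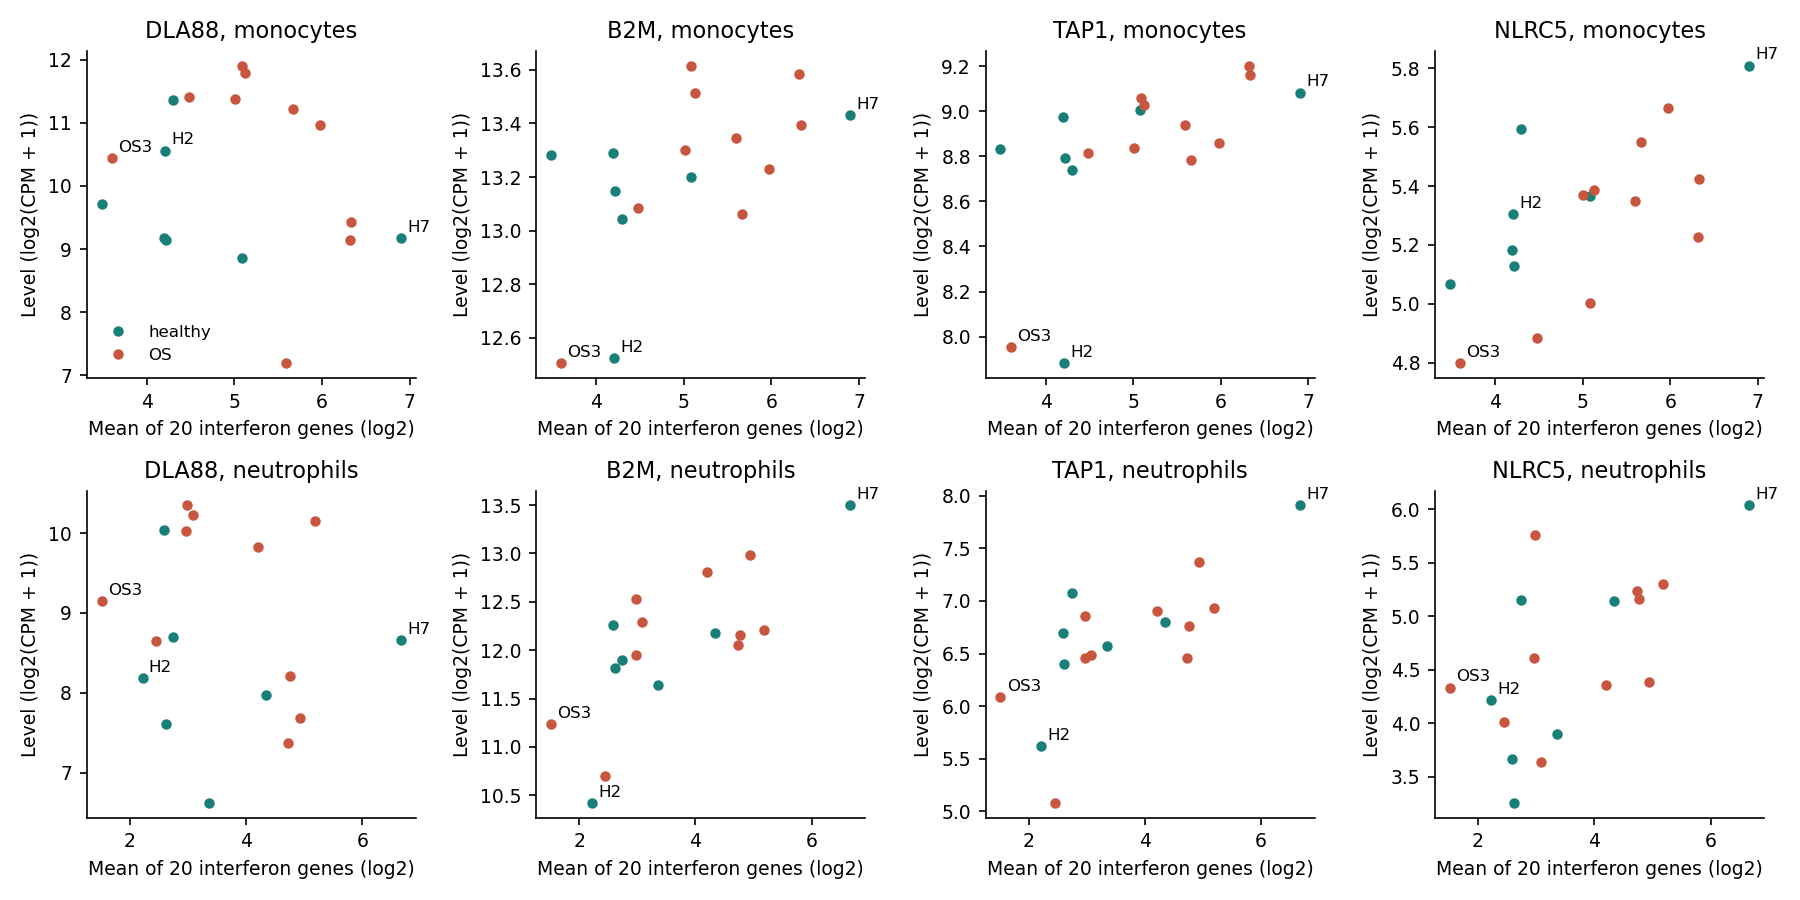
Level of DLA88, B2M, TAP1 and NLRC5 (log2(CPM + 1)) against the mean log2 level of 20 interferon-stimulated genes, 1 point per dog, in monocytes (upper panels) and neutrophils (lower panels), with healthy dogs and dogs with OS in separate colors and the 3 dogs that stand apart named. Healthy dog 7 lies at the right end, and healthy dog 2 and OS dog 3 at or near the low end of B2M and TAP1, while DLA88 spans a wider range than the other 3 genes in both classes.

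The remaining classes were described without a test. Platelets of 16 dogs had the highest B2M of all classes, with a median of 57281 CPM (18440 to 96247), and a DLA88 median of 3167 CPM (337 to 18449), at a median of 753 UMIs per cell. The TMM factors of these platelet sums ran from 0.316 in OS dog 2, the highest dog in both genes, to 1.04 in healthy dogs 2 and 4. A factor under 1 raises the CPM, and its part in the platelet levels was not tested. Platelet TAP1 was low, with a median of 172 CPM. Dendritic cells of 13 dogs had the highest median of TAP1, 623 CPM, and the lowest of NLRC5, with a range of 6.92 to 16.6 CPM. Plasma cells of 12 dogs also had little NLRC5, with a median of 17.2 CPM, and eosinophils and basophils of 15 dogs had 58.2 CPM. OS dog 8 was lowest in DLA88 in each of these 5 classes, other T cells included.

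The genes whose levels were most like those of a member over the 85 sums were found among 7705 genes of at least 10 CPM. For NLRC5 they included GAB3 (r = 0.89), ZNRF3 (0.88), NCK1 (0.88) and CD2 (0.88). CD2 is a surface molecule of T and NK cells. For B2M they included GPX1 (0.84), ITM2C (0.84), GIMAP8 (0.82) and GIMAP4 (0.82), of which the GIMAP genes encode lymphocyte GTPases. For DLA88 no gene came as close, the nearest being RABGGTB (0.59), ALG11 (0.56), ENSCAFG00000004838 (0.54), BRD9 (0.53) and DNAJB13 (0.53). With the class means taken out they were ENSCAFG00000010923 (0.60), H1-4 (0.57), a further gene without a symbol (0.55), RABGGTB (0.55) and TFG (0.49). Sums of a class share its cell type and sums of a dog share its library, so these are descriptions.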

How the data were processed

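Values were counts of UMIs per gene and cell barcode, deposited by the authors as 1 matrix per dog without normalization. Per the submitters' notes they were made with Cell Ranger 7.0.0 on CanFam3.1 (Seurat is also named). Alignments were made by the authors both ways, counting intronic reads or leaving them out, and the sources used here do not say which way gave these counts. Groups came from the disease state in the labels. Ages and breeds came from the study's text. The members and gene lists were chosen with earlier results of these data known. TAP2 has no row under that symbol, and no column was left unused.

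Barcodes were kept where the gene number lay between 200 and 4500, the UMI number between 500 and 20000 and mitochondrial counts under 10%. As likely doublets, the cells of highest Scrublet score were removed, 0.8% of a dog's cells for each 1000 barcodes. Log counts of 2000 variable genes (139 genes left out, members among them) gave 30 principal components, which were corrected for the dog by soft k-means, then a graph of 20 neighbors and 38 Leiden clusters (resolution 1.0, seed 1). Clusters were named from marker lists with at least 3 markers detected, so the classes can differ from the study's own.

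Counts were summed per dog and class (at least 25 cells), scaled by TMM and entered the quasi-likelihood test of edgeR for genes of at least 10 counts, separately per class for OS against healthy, and in 1 fit of 85 sums with the dog as a block between classes. Calls needed a Benjamini-Hochberg adjusted p under 0.01 and a log2 difference above 0.58 in size. Correlations used log2(CPM + 1) and permutation tests of 100000 resamples over 17 dogs, where the smallest p is 1e-05. Depth was between 7740230 and 56510134 UMIs per dog. Named genes were the members, the other class I genes found, called list genes of the OS comparisons (there were none) and the 5 genes most like DLA88, B2M and NLRC5, some of which are not reported here. The 4 immunoproteasome genes were named after their values were seen. Alternatives were DESeq2, DESeq2 size factors, other filters, 10 cells, age as a covariate, a replicate block, doublets kept, resolution 0.5, no correction across dogs, 1 group of dogs alone and each dog left out. After the data had been seen, the unnamed T cells were counted as CD4 T cells, and dogs that stand apart were left out. Procedures were tested on simulated data, the permutation tests on normally distributed values. Tools were Python 3.11.15 (numpy 2.4.6, scipy 1.17.1, pandas 2.3.3, scikit-learn 1.9.0, scanpy 1.11.5, anndata 0.12.19, igraph 0.11.9, leidenalg 0.10.2, matplotlib 3.10.9) and R 4.3.3 (edgeR 4.0.16, limma 3.58.1, DESeq2 1.42.0). Reads, DLA types and flow cytometry were not analysed here.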

Additional observations from a re-analysis of the deposited data

Results flagged for a closer look

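In 11 of the 50 groups examined (5 genes, 5 classes, healthy dogs and dogs with OS apart), 1 dog lay far from the others by Dixon's criterion, where chance gives about 1 group in 20. Of these, 10 values belong to healthy dog 2 and OS dog 3, which had the lowest shares of ribosomal protein UMIs in CD4 T cells, CD8/NK cells and B cells. In monocytes their shares were 7.82 and 7.86%, and OS dog 2 was lower at 7.11%.

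Healthy dog 2 was low in B2M in B cells, at 1998 CPM where the other healthy dogs had 3901 to 5124, and in monocytes, at 5892 CPM against 8444 to 11054. Its TAP1 was low in CD4 T cells (203 CPM against 403 to 546), in CD8/NK cells (191 CPM against 364 to 511) and in monocytes (235 CPM against 426 to 541).

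OS dog 3 was low in B2M in monocytes, at 5816 CPM where the other dogs with OS had 8563 to 12553. Its TAP1 was low in CD4 T cells (265 CPM against 414 to 583) and in monocytes (247 CPM against 440 to 588). Its TAPBP was low in CD4 T cells (60.5 CPM against 87.4 to 132) and in monocytes (125 CPM against 197 to 327). The part of RNA quality in these values was not tested.

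NLRC5 in B cells of healthy dog 7 was 8.11 CPM, where the other healthy dogs had 14.2 to 18.5 CPM. The same dog had the highest NLRC5 in monocytes (55.1 CPM) and neutrophils (64.6 CPM). No group of DLA88 values held such a dog.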

How the results depend on the processing

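Between dogs with OS and healthy dogs, 0 genes were called in each class under each alternative run, except for 2 genes by DESeq2 in monocytes. Of 750 recomputed differences of a member between OS and healthy, 709 kept their direction without a call and 41 changed sign. DLA88 kept a positive difference in each class under each alternative, from 0.71 (B cells, age as a covariate) to 1.89 (CD4 T cells, replicate block).

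The differences that changed sign lay between -0.25 (TAP1 in neutrophils) and 0.15 (TAPBP in monocytes) on the log2 scale. With healthy dogs 2 and 7 and OS dog 3 left out, NLRC5 was at -0.038 in CD8/NK cells, -0.10 in B cells, 0.068 in monocytes and 0.46 in neutrophils. With healthy dog 2 and OS dog 3 left out B2M was at -0.066 in neutrophils. With doublets kept NLRC5 was at -0.062 in B cells, and with age as a covariate at 0.049 in neutrophils. With each dog left out in turn, NLRC5 ran from -0.0090 to 0.065 in CD4 T cells, from -0.17 to 0.10 in B cells, from -0.14 to 0.013 in monocytes and from -0.27 to 0.44 in neutrophils, the last without healthy dog 7. TAP1 ran from -0.038 to 0.17 in CD4 T cells, from -0.030 to 0.17 in CD8/NK cells, from -0.11 to 0.00089 in B cells, from -0.020 to 0.18 in monocytes and from -0.37 to 0.044 in neutrophils. TAPBP ran from -0.034 to 0.11 in CD4 T cells and from -0.29 to 0.016 in neutrophils. B2M ran from -0.0057 to 0.20 in CD8/NK cells, from -0.040 to 0.15 in B cells and from -0.13 to 0.40 in neutrophils.

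The replicate numbers are names only. Deviations of same-numbered dogs correlated at -0.46 to 0.68, over 0.1 in 2 to 4 of 7 pairs of a class, and at most 1 of 7 dogs of a class correlated best with its own number. A fit with these numbers as a replicate block, in which only 7 dogs of each group can be paired, called 0 genes, as did the fit without. It put NLRC5 at -0.019 in CD4 T cells, -0.21 in B cells and 0.091 in neutrophils, TAPBP at -0.087 in CD4 T cells and -0.015 in monocytes, and B2M at -0.017 in neutrophils.

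Of 550 recomputed differences of a member between classes, 506 kept their direction and call, 16 gained a call, 7 lost it and 21 changed sign. DESeq2 size factors moved the median of all genes by up to 0.30, and put TAP1 at 0.16 and DLA88 at 0.20 for CD4 T cells minus monocytes, TAP1 at 0.081 for CD8/NK cells minus monocytes, TAPBP at 0.045 for CD8/NK cells minus neutrophils and at 0.031 for B cells minus monocytes, and B2M at 0.26 for B cells minus neutrophils. The last was at 0.15 without a filter on low counts, 0.15 in dogs with OS, 0.017 in healthy dogs, 0.21 without the 3 dogs that stand apart, 0.081 with doublets kept and 0.14 without a correction across dogs. DLA88 in CD4 T cells minus monocytes was at 0.024 with resolution 0.5, 0.053 with the unnamed T cells counted, 0.00075 without a filter, 0.088 in dogs with OS and 0.026 without the 3 dogs. TAP1 there was at 0.012 with resolution 0.5 and 0.0046 with the unnamed T cells. TAPBP in CD8/NK cells minus neutrophils was at 0.089 in dogs with OS and 0.031 without the 3 dogs.

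Of the 75 relations of members with class I genes, each other and interferon-stimulated genes over dogs, 41 had an adjusted p under 0.05. There were 10 in healthy dogs alone, where 7 dogs enter, and 18 without healthy dog 2 and OS dog 3. The cause of the latter was not tested. The median r of DLA88 between classes stayed between 0.981 and 0.985. NLRC5 in B cells and neutrophils rests on as few as 2 UMIs per dog, and the part of depth in its relations was not tested.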

Other observations

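Breed, as the study's text gives it, was shared by 3 pairs of dogs, and the share of DLA88 in the UMIs of DLA88 and DLA-64 differed within the pairs to an unlike degree. It was 38.8% in OS dog 2 and 7.67% in OS dog 10 (both Saint Bernards), 11.8% in healthy dog 6 and 42.0% in OS dog 1 (both Labradors), and 38.5% in OS dog 3 and 48% in OS dog 7 (both Great Danes). The Great Danes lay on the same side of the gap between 18.4 and 38.5%, and the dogs of the other pairs on opposite sides. Within 1 dog the classes spanned up to 15.7 percentage points. With 1 pair of a breed no test was made.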
